A study of Saccharomyces cerevisiae with 30 samples.

Results

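Messages translated beside Sec63, a partner protein of the translocon, were compared with those translated beside the tail anchor of Ubc6, which sits in the membrane of the endoplasmic reticulum (ER) through a single C-terminal segment. The comparison used the 8 input and pulldown pairs of both baits that were collected with cycloheximide at 0, 15, 30 and 60 min of auxin, which are 16 of the 30 libraries of the study. In each pair a message has an enrichment, the log2 ratio of its footprints in the pulldown to those in the input, and the Sec63 minus Ubc6 difference of enrichment was taken at each of the 4 matched times. A positive difference means higher at Sec63, and a negative one higher at Ubc6.

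The study measured footprints of ribosomes that a biotin ligase (BirA) on a chosen membrane had marked, in budding yeast in which a subunit of the signal recognition particle (SRP) can be destroyed by adding auxin. Both strains derive from S288C and carry the alleles leu2-delta-0, met15-delta-0 and ura3-delta-0, and in both the ribosomal proteins have an acceptor tag for biotin (RPL16a-HA-TEV-AVI and RPL16b-HA-TEV-AVI). In both, Srp72 bears a degron (srp72-AID-HA, marked with LEU2) and the auxin receptor OsTIR1-V5 is expressed. The Sec63 strain has BirA fused to the native protein (sec63::SEC63-mVenus-BirA::HIS5) with OsTIR1-V5 at his3, marked with URA3. The Ubc6 strain keeps its native UBC6 gene as far as the label says, and has at his3 a construct of the SEC63 promoter, BirA, mVenus and the tail anchor of Ubc6, together with OsTIR1-V5 and marked with HIS5, so its ligase carries the membrane anchor of Ubc6 and not the whole enzyme. Cells grew in SD medium with 0.125 ng/ml biotin, received 500 µM auxin for 15, 30 or 60 min or none, then 100 µg/ml cycloheximide for 2 min, which stops elongation, and then 10 nM biotin for 2 min. Every combination of bait, time and fraction had 1 library.

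SRP binds the first hydrophobic segment of a growing chain as it leaves the ribosome and brings the ribosome to its receptor on the ER, where the Sec61 or Ssh1 channel takes over the chain. Sec63 works with the Sec61 channel and with the Hsp70 Kar2 in the lumen, so a ligase on it marks ribosomes at sites of translocation. Ubc6 is a ubiquitin-conjugating enzyme of ER-associated degradation that is inserted after its synthesis, and its tail anchor holds the other ligase in the ER membrane without the rest of the enzyme.

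Library totals over the listed genes ranged from 11.1 M to 113 M counts in Sec63 inputs and 13.4 M to 79.7 M in Sec63 pulldowns, against 2.04 M to 11.5 M in Ubc6 inputs and 4.86 M to 8.17 M in Ubc6 pulldowns. The input of the Ubc6 pair at 0 min was the smallest library. The Sec63 libraries were made with a barcoded linker that held a molecular identifier, whereas no barcode is listed for the Ubc6 libraries. HIS3 had 41 to 1616 counts in Sec63 libraries and 0 to 4 in Ubc6 libraries. The 9 secretory marker messages (such as KAR2, PMA1 and HXT3) were above 0 in every pair of both baits, with medians of 2.46 to 4.66 at Sec63 and 1.19 to 3.48 at Ubc6, while the medians of 6 cytosolic messages were −0.49 to −0.18 at Sec63 and −0.41 to −0.36 at Ubc6. SRP72 itself differed by −0.07, but the degron acts on the protein, so footprints do not check its loss.

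Each p-value measures how steadily 1 series differed from 1 other over the matched times. The bait cannot be told apart from the strain, the construct or the library preparation. Of 5286 genes tested, 430 (8.13%) were higher at Sec63 and 86 (1.63%) were higher at Ubc6 by the edgeR quasi-likelihood test at an adjusted p below 0.05. The median difference over all genes was 0.08. Scaling by library totals moved that median to −0.17 and the split to 186 higher at Sec63 and 220 higher at Ubc6, so directions are read against the all-gene median. The counts also rested on single times: 41 and 35 genes passed without the 15 min libraries, 215 and 50 without the 30 min libraries, and 6 and 32 without the 60 min libraries. Limma on the 8 enrichments called 1 and 8, and edgeR without the auxin time as a block 1 and 22. Called in every fit that left out a time, rescaled the libraries or moved the filter were 5 Sec63-side genes, among them ARN1, CSG2 and PDR15, and 27 Ubc6-side genes, among them SCH9, FAB1, VPS35, VPS27, CLA4, RSP5, GIS3, VAC8, MIS1, RAV1, SEC21, ACC1, HEM1 and ATP2. That set does not cover the fit without the time block, in which 1 Sec63-side and 22 Ubc6-side genes of the 430 and the 86 were called. With the Sec63 series made without cycloheximide ARN1 (−0.19) and CSG2 (−0.87) turned sign, and 22 of the 430 and 42 of the 86 were called on the same side. That fit keeps Ubc6 pairs on which both sets were chosen.

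On the Ubc6 side single genes had differences of several-fold. SCH9 (YHR205W, chromosome VIII, 509363 to 511837, build sacCer3), a kinase that acts below TORC1 at the vacuole, had enrichments of −0.88, −0.85, −1.13 and −1.16 at Sec63 at 0, 15, 30 and 60 min, against 2.36, 2.62, 2.56 and 2.63 at Ubc6. It was depleted in every Sec63 pair and enriched in every Ubc6 pair, with a fitted difference of −3.55 ± 0.14 (SE, 4 times; edgeR adjusted p = 8.59e-07), or 11.8-fold. This was the largest difference among the genes that passed with the same sign at all 4 times and a mean input count of at least 100. FAB1 (YFR019W, chromosome VI, 184502 to 191338), the kinase that makes phosphatidylinositol 3,5-bisphosphate on vacuoles, had −0.16, −1.04, −0.80 and −0.63 at Sec63 and 1.69, 2.24, 2.30 and 2.36 at Ubc6. Its difference was −2.85 ± 0.21 (edgeR adjusted p = 5.88e-05).

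VPS35, the cargo-binding core of the retromer coat that returns receptors from endosomes, ran from −1.03 to −0.89 at Sec63 and from 1.44 to 1.69 at Ubc6, a difference of −2.55 ± 0.13. VPS27, the endosomal protein that starts sorting of ubiquitinated cargo, ran from −1.48 to −0.71 at Sec63 and from 1.35 to 1.89 at Ubc6, a difference of −2.47 ± 0.16. Neither message had a Sec63 value within 2 log2 units of a Ubc6 value. The p21-activated kinase CLA4 (−2.31 ± 0.16), the ubiquitin ligase RSP5 (−2.20 ± 0.14), which marks membrane proteins for endosomal sorting, and GIS3, of unknown function (−2.16 ± 0.15), followed. The edgeR adjusted p-values of these 5 genes lay between 6.29e-06 and 4.16e-05.

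VAC8, a lipid-modified armadillo-repeat protein of the vacuole membrane, had 0.09, 0.38, 0.63 and 0.77 at Sec63 and 2.10, 2.14, 2.30 and 1.97 at Ubc6 (difference −1.65 ± 0.15, edgeR adjusted p = 0.000341). Both baits thus held it above 0, and the Ubc6 values were all higher. PIB1, an endosomal ubiquitin ligase with a lipid-binding FYVE domain, differed by −1.65 ± 0.28, but its 0 min values of −0.50 at Sec63 and −0.25 at Ubc6 rested on 48 input counts in the Ubc6 pair and lay close together. RAV1, of the complex that assembles the vacuolar proton pump, differed by −1.48 ± 0.20.

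Of the 86 genes, 18 were in a mitochondrial list, 67 in no list used here and 0 in a secretory list. No list of vacuolar or endosomal peripheral proteins was tested, so the genes above stand as single genes. The next genes were picked out after their values were seen and support no grouping: the vacuole-tethering subunits VAM6 (−1.37 ± 0.22) and VPS41 (−1.0 ± 0.20), the TORC1 regulators PIB2 (−0.79 ± 0.16) and IML1 (−1.12 ± 0.20), and SKM1 (−1.12 ± 0.26), a relative of CLA4. The coatomer subunit SEC21 (−1.44 ± 0.18) and ACC1 (−1.45 ± 0.22), the cytosolic acetyl-CoA carboxylase, also passed. So did genes of other kinds, among them the transcription coactivator subunit SPT7, the ribosome synthesis factor NAN1, the exosome nuclease DIS3, the glutamyl-tRNA synthetase GUS1, the proteasome subunit RPN3, the actin factor AIP1 and the myosin MYO3. For ACC1 the enrichment was −0.83, −0.64, −0.66 and −0.95 at Sec63 and −0.11, 0.67, 0.93 and 1.24 at Ubc6. In all, 79 of the 86 genes had every Ubc6 value above every Sec63 value, a pattern that 4.46% of all genes showed. On the Sec63 side 90 of the 430 had every Sec63 value above every Ubc6 value, against 4.56% of all genes. The fit that chose both sets uses the same values, so these shares are descriptions.

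**Figure D1:**
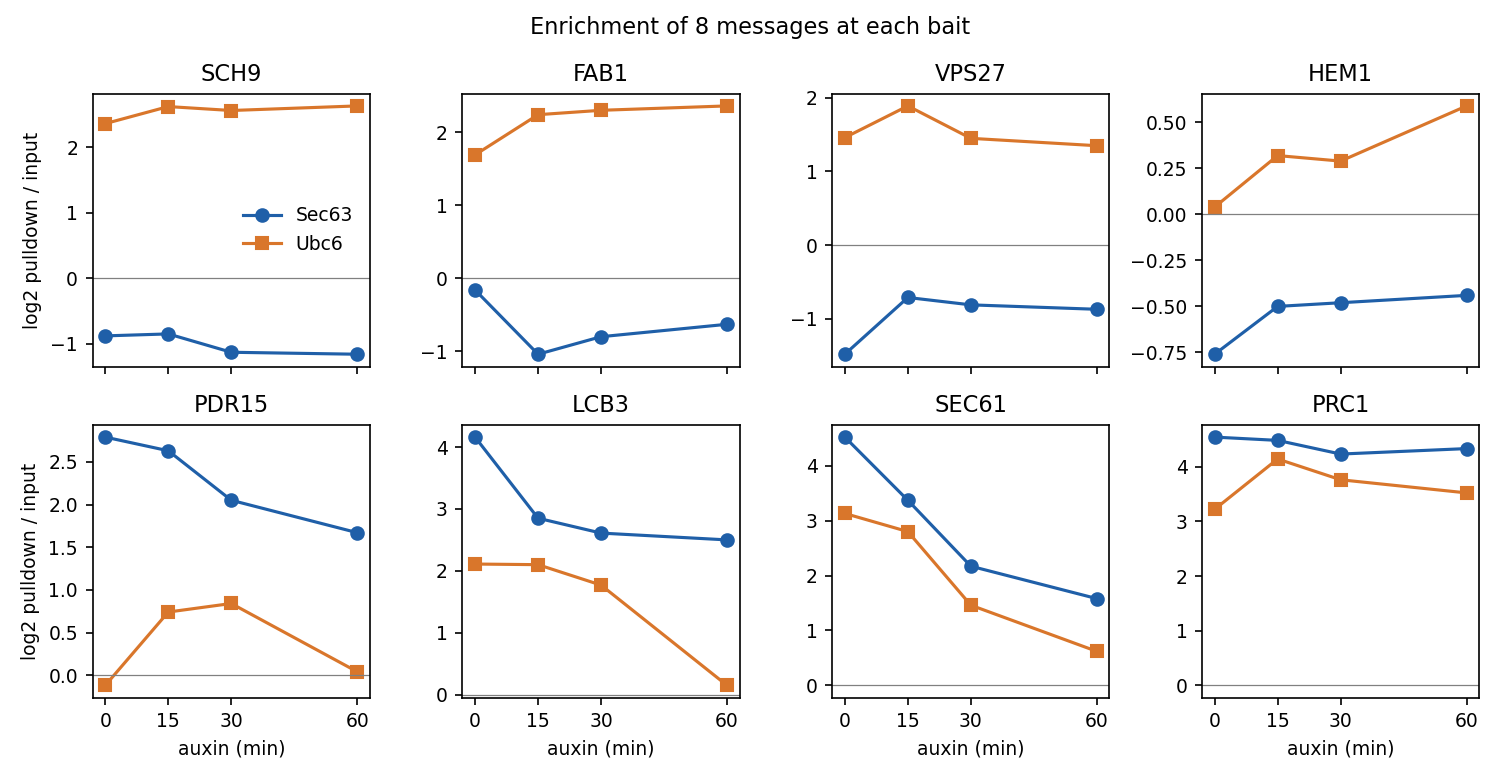
Log2 pulldown over input (vertical axes, a separate scale in each panel) against minutes of auxin for 8 messages, with Sec63 in blue circles and Ubc6 in orange squares, 1 pair per point. SCH9, FAB1, VPS27 and HEM1 lie higher at Ubc6 at all 4 times, and PDR15, LCB3, SEC61 and PRC1 lie higher at Sec63 at all 4.

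Messages for proteins imported into mitochondria with an N-terminal presequence were also found on the Ubc6 side. Of 47 listed members, 15 were higher at Ubc6, where 1.63% of all genes were, and 0 at Sec63 by edgeR, and the median difference was −0.40 (25 and 1 at an unadjusted p below 0.05, 22 and 0 by DESeq2). With the Sec63 series without cycloheximide the list had medians of 0.05, 0.14 and −0.15 at 0, 30 and 60 min, so its direction was not found there. MIS1, the mitochondrial C1-tetrahydrofolate synthase, had −1.09, −0.85, −0.79 and −0.64 at Sec63, against 0.62, 0.51, 0.54 and 1.00 at Ubc6 (difference −1.51 ± 0.13, edgeR adjusted p = 0.000283). HEM1, the first enzyme of haem synthesis, had −0.76, −0.50, −0.48 and −0.44 at Sec63 and 0.04, 0.32, 0.29 and 0.59 at Ubc6. Its difference was −0.85 ± 0.13 (edgeR adjusted p = 0.00547). ATP2, the beta subunit of the mitochondrial ATP synthase, differed by −0.89 ± 0.14, and HFA1, the mitochondrial acetyl-CoA carboxylase, by −1.63 ± 0.25. These messages were near or modestly above 0 at Ubc6 and below 0 at Sec63, so their levels differ from those of SCH9 or FAB1, which were well above 0 at Ubc6.

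Separate libraries of the study, with the ligase on the mitochondrial outer membrane proteins Tom20 and Om45, split the 86 genes. Without auxin, 55 of the 86 (64%) had enrichments above 1 at both mitochondrial baits, against 28 of the 430 Sec63-side genes (6.51%) and 10.5% of all genes tested. The other 31 were below 1 at both. MIS1 had 4.13 at Tom20 and 4.46 at Om45, and HFA1 had 3.60 and 4.14. SCH9 had −0.73 at Tom20 and 0.62 at Om45, FAB1 −0.43 and 0.63, VPS35 −0.69 and 0.30, and VAC8 −0.65 and 0.84. These 4 messages were below 0 at Tom20 and between 0 and 1 at Om45, while CLA4 had 0.25 and 0.62. LAM6, a sterol transfer protein of ER contact sites that was also picked out after its values were seen, had 2.33 at Tom20 and 2.13 at Om45 and differed by −1.09 ± 0.18 between the ER baits. The Tom20 strain is of another background (W303), and no test was made of these shares.

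**Figure D2:**
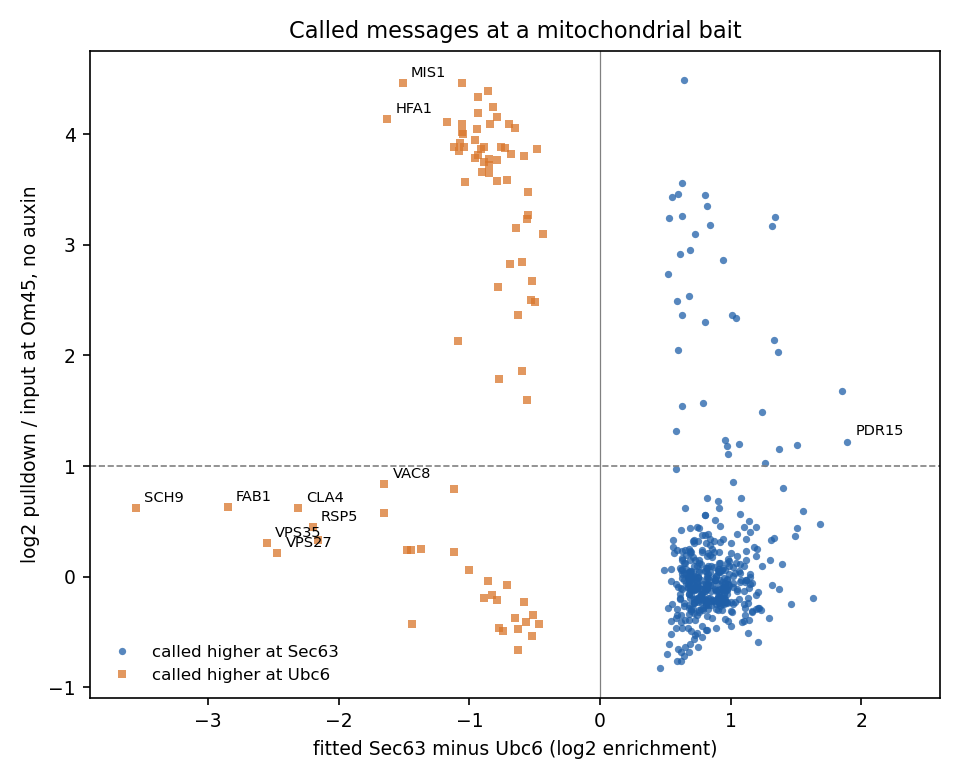
Fitted Sec63 minus Ubc6 difference (horizontal axis, log2) against the log2 enrichment at Om45 without auxin (vertical axis) for the 430 genes called higher at Sec63 (blue circles) and the 86 called higher at Ubc6 (orange squares), with a dashed line at 1. The Ubc6 side falls into a group above the line, which holds MIS1 and HFA1, and one below it, which holds SCH9, FAB1, VPS35 and VPS27.

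The genes named on the Sec63 side by size of difference included several transporters. PDR15 (YDR406W, chromosome IV, 1279210 to 1283799), an ATP-binding cassette exporter of the plasma membrane, had 2.79, 2.63, 2.05 and 1.67 at Sec63, against −0.12, 0.74, 0.84 and 0.04 at Ubc6. All Sec63 values lay above all Ubc6 values, with a difference of 1.89 ± 0.23 (edgeR adjusted p = 0.00336). Its inputs differed as well, by −0.71 ± 0.10 (edgeR adjusted p = 0.01), which is part of that value. ARN1, a siderophore transporter, had 3.96, 3.35, 2.57 and 2.07 at Sec63 and 2.32, 1.97, 1.10 and 0.51 at Ubc6. Both baits declined over the time course and the groups overlap, yet each Sec63 value exceeded the Ubc6 value of the same time (difference 1.51 ± 0.14, edgeR adjusted p = 0.000283). Its inputs differed by −1.24 (edgeR adjusted p = 0.0057), lower in the Sec63 strain, and its pulldowns by 0.20 (edgeR adjusted p = 0.362), so most of that value is an input difference.

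LCB3, the ER phosphatase of sphingoid base phosphates, had 4.16, 2.85, 2.61 and 2.50 at Sec63 and 2.11, 2.10, 1.77 and 0.15 at Ubc6, a difference of 1.46 ± 0.26. CSG2, an ER membrane protein of sphingolipid mannosylation, had 4.72, 4.10, 3.73 and 3.63 at Sec63 and 2.79, 2.97, 2.70 and 2.42 at Ubc6. The inputs of CSG2 did not pass the test (0.31, edgeR adjusted p = 0.175), and its enrichment difference was 1.32 ± 0.17 (edgeR adjusted p = 0.00417). The siderophore transporter ARN2 (1.85), the permease relative SEO1 (1.63), the proline permease PUT4 (1.55), the glucose transporter HXT5 (1.51), the arsenite exporter ARR3 (1.49), the steroid resistance protein RTA1 (1.40) and the mating membrane protein PRM1 (1.37) followed, with the uncharacterised YJL118W (1.68) and YPL264C (1.39). For HXT5, RTA1, PRM1, YJL118W and YPL264C the pulldown difference was larger than the input difference. For the other genes in that sentence the input difference was the larger. The inputs of ARN2 differed by −1.11 (edgeR adjusted p = 0.0507) and its pulldowns by 0.64, and those of ARR3 by −0.95 (edgeR adjusted p = 0.2) and 0.55. The inputs of SEO1 differed by −1.49 (edgeR adjusted p = 0.0578) and its pulldowns by 0.21, and those of PUT4 by −1.11 (edgeR adjusted p = 0.0891) and 0.49. Several of the genes named here had few input counts in the Ubc6 pair at 0 min, such as 10 for PUT4 and PRM1, 13 for RTA1 and 14 for ARR3.

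Among gene lists of the secretory pathway, plasma membrane transporters had 39 of 79 members higher at Sec63 (median difference 0.82), where 8.13% of all genes were and the all-gene median was 0.08, with the choline transporter HNM1 at 1.14 ± 0.15. Enzymes of phospholipid and sphingolipid synthesis had 17 of 26 (median 0.73), those of sterol and fatty acid synthesis 15 of 25 (0.70), and the polytopic glycosylation enzymes 11 of 20 (0.68). Polytopic proteins of the vacuole and Golgi had 17 of 35 (0.68), among them the lipid flippase DRS2 at 1.12 ± 0.17. Lists of soluble, GPI-anchored or single-pass proteins had medians that were also above that of all genes. Soluble secreted and vacuolar proteins had 3 of 30 (0.57), soluble ER lumen proteins 2 of 16 (0.55), GPI-anchored proteins 2 of 33 (0.48), signal-anchor enzymes 7 of 32 (0.53) and type I single-pass proteins 7 of 29 (0.53). The first 3 of these counts lie near the 8.13% of all genes and moved with the tool, to 12, 6 and 4 by DESeq2. Over the 11 secretory lists together 126 of 342 members were higher at Sec63 and 0 were higher at Ubc6 by edgeR (251 and 1 at an unadjusted p below 0.05, and 163 and 0 by DESeq2). With library totals 66 and 0 passed. With the Sec63 series without cycloheximide the median of each of the 11 lists was below 0 at 0, 30 and 60 min, the opposite direction.

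Within these lists the vacuolar carboxypeptidase PRC1 had 4.54, 4.48, 4.23 and 4.33 at Sec63 and 3.22, 4.14, 3.76 and 3.52 at Ubc6 (difference 0.74 ± 0.19, edgeR adjusted p = 0.0387). The chaperone KAR2 had 4.69, 4.14, 3.85 and 3.87 at Sec63 and 3.08, 4.08, 3.60 and 3.02 at Ubc6, which did not pass (0.69 ± 0.26, edgeR adjusted p = 0.126). For KAR2 the baits were within 0.3 log2 units of each other at 15 and 30 min and further apart at 0 and 60 min. The oxidoreductase PDI1 (0.66, edgeR adjusted p = 0.119) and the cell wall glucanosyltransferase GAS1 (0.55, edgeR adjusted p = 0.173) did not pass either, while the vacuolar phosphatase PHO8 did (0.62 ± 0.16, edgeR adjusted p = 0.0407).

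Among the components of targeting and insertion, the channel subunits with several spans had messages enriched at both baits. SEC61, the pore of the main channel, had 4.52, 3.37, 2.17 and 1.58 at Sec63 and 3.13, 2.80, 1.46 and 0.62 at Ubc6 (difference 0.91 ± 0.17, edgeR adjusted p = 0.0107). SSH1, the pore of the alternative channel, differed by 0.91 ± 0.16, and SEC63, the gene that carries the fusion in the Sec63 strain, by 0.80 ± 0.15. These were the 3 of 9 translocon members that passed. For SEC63 the inputs differed by −0.43 (edgeR adjusted p = 0.154) and the pulldowns by 0.31 (edgeR adjusted p = 0.208), so its pulldown difference did not pass. The pulldowns of SEC61 differed by 1.12 and those of SSH1 by 1.01. Of SRP and its receptor, mostly soluble subunits, 1 of 8 passed, the membrane-anchored subunit of the receptor, with list medians of −0.25, −0.15, −0.24 and −0.42 at Sec63 and −0.44, −0.01, −0.17 and −0.52 at Ubc6. Of the GET and SND factors with the ER membrane complex, 7 of 17 were higher at Sec63, with EMC3, a core subunit of the insertase, at 1.16 ± 0.18. UBC6, whose tail anchor is one bait, had −0.05, −0.19, −0.58 and −0.60 at Sec63 and −0.51, −0.11, −0.44 and 0.00 at Ubc6, a difference of −0.11 ± 0.17 (edgeR adjusted p = 0.76). Its message was near 0 at both baits.

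Tail-anchored proteins as a list had 0 of 28 members past the edgeR test in either direction (2 genes higher at Sec63 and 0 at Ubc6 at an unadjusted p below 0.05, and 0 by DESeq2). Their median was 0.18, and −0.05 under library totals, where that of all genes moved from 0.08 to −0.17. Of the cytosolic lists, glycolysis had 0 of 19 and a median of 0.01, translation factors 0 of 29 and −0.05, and proteasome subunits 1 of 32 higher at Ubc6 and −0.02. At an unadjusted p below 0.05 glycolysis had 1 gene in each direction and translation factors 1 higher at Ubc6, and DESeq2 called 0 in both lists. Cytosolic chaperones had 0 of 20 by edgeR with a median of −0.14, but 5 higher at Ubc6 at an unadjusted p below 0.05 and 4 by DESeq2. Cytosolic ribosomal proteins had 5 of 137 higher at Sec63 and a median of 0.20, with 35 at an unadjusted p below 0.05 and 8 by DESeq2. That median was −0.06 under library totals, still above the all-gene median of −0.17. Not every ER message was higher at Sec63. TCB1, a tether of the ER to the plasma membrane, had 4.57, 2.34, 0.96 and 0.13 at Sec63 and 3.85, 2.78, 0.94 and 0.09 at Ubc6, a difference of 0.08 ± 0.18 (edgeR adjusted p = 0.844). The related tether TCB3 differed by 0.20 ± 0.19. SCS2, a tail-anchored tether, differed by −0.08.

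A few mitochondrial messages of other topology were higher at Sec63. Carriers of the inner membrane, which have several spans and no presequence for the most part, had 6 of 28 higher at Sec63 and 0 at Ubc6, against 8.13% and 1.63% of all genes (median 0.47; 11 and 0 at an unadjusted p below 0.05, 5 and 0 by DESeq2). With the Sec63 series without cycloheximide the carrier list had medians of 0.47, −0.09 and −0.45. PET9, the main ADP/ATP carrier, had 0.11, 1.21, 1.81 and 1.81 at Sec63 and −0.29, 0.47, 0.94 and 0.93 at Ubc6 (difference 0.73 ± 0.14, edgeR adjusted p = 0.012). The dicarboxylate carrier DIC1 differed by 0.61 ± 0.14 and the NAD transporter YEA6 by 1.26 ± 0.26. Of outer membrane proteins 3 of 25 were higher at Sec63, near the share of all genes. Their median was 0.18, and −0.06 under library totals, above the all-gene median in both (0.08 and −0.17). TOM5, a small subunit of the import pore, had 0.35, 0.53, 0.61 and 0.34 at Sec63 and −1.15, −0.32, −0.38 and −0.77 at Ubc6, with no overlap (1.10 ± 0.15, edgeR adjusted p = 0.00439). OM45 differed by 0.64 ± 0.16, and the import receptor TOM70 by 0.04 ± 0.13 (edgeR adjusted p = 0.89).

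**Figure D3:**
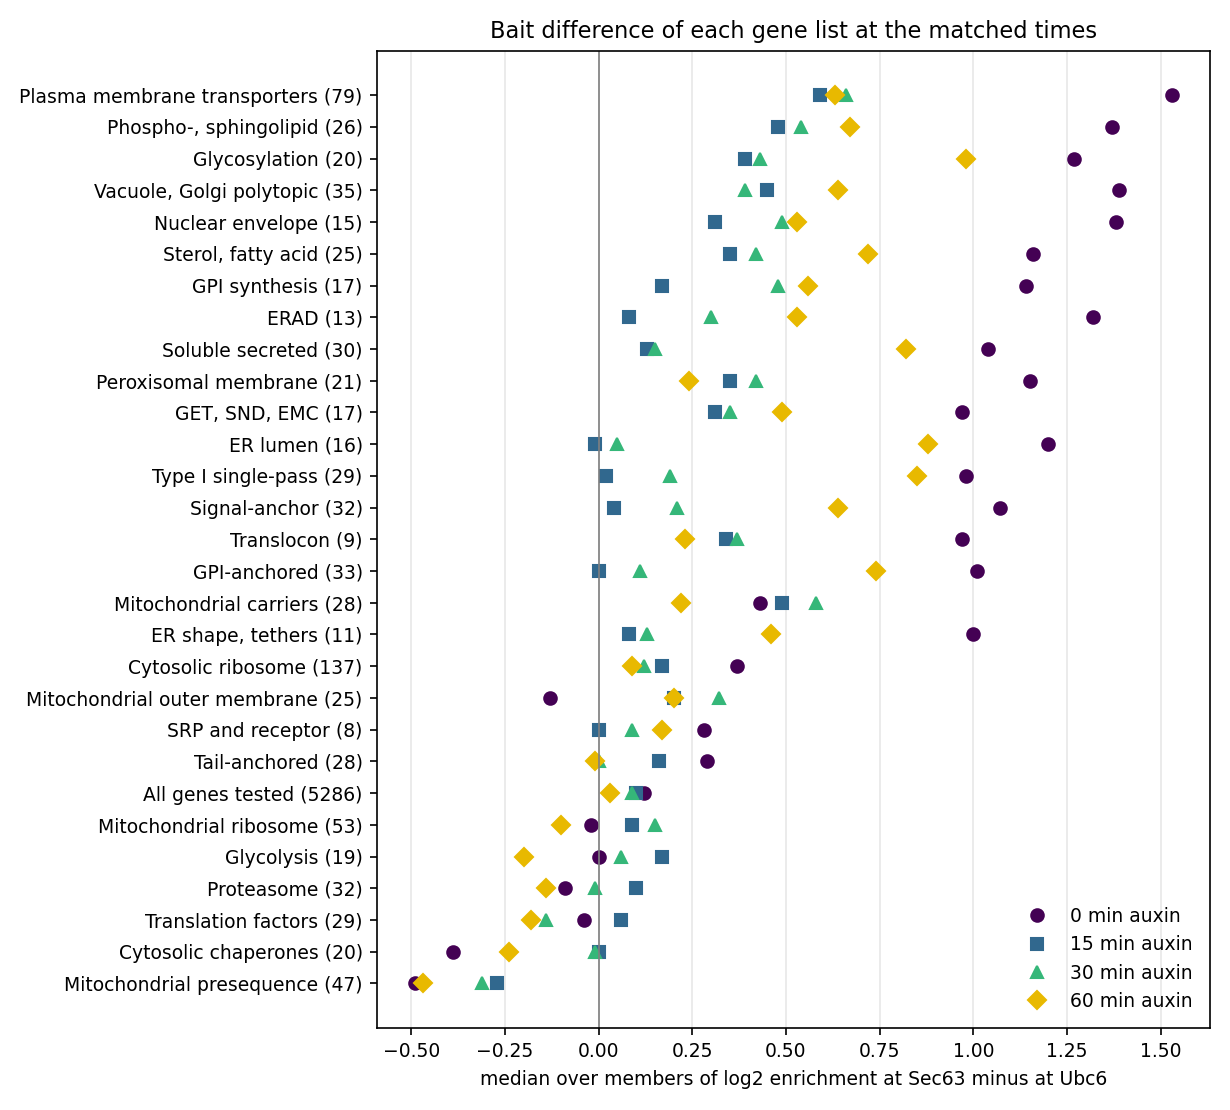
Median over the members of each list (number tested in brackets) of the Sec63 minus Ubc6 difference of log2 enrichment, at each auxin time. Secretory lists have their 0 min marker furthest right, well above that of all genes, soluble and single-pass lists come close to 0 at 15 and 30 min, and the mitochondrial presequence list lies left of 0 at all 4 times.

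Whether these differences held before and after SRP loss was asked with a fit of the 15, 30 and 60 min libraries alone, which called 518 genes (9.8%) higher at Sec63 and 124 (2.35%) higher at Ubc6 by edgeR. The 0 min pairs, which that fit did not use, then gave a separate reading. Of the 518 genes, 481 (92.9%) were also above 0 in the difference at 0 min, against 56.2% of all genes. Of the 124, 112 (90.3%) were below 0 at 0 min, against 43.7% of all genes. Before auxin the Sec63-side genes had a median difference of 1.21, and after it 0.67. The Ubc6-side genes had −0.76 before and −0.70 after. The Sec63-side value at 0 min was shared by enriched messages as a class. Genes with a mean enrichment over the 8 pairs of 1 to 2 (340 genes) had a 0 min median of 1.12, called or not. Those with 2 or more (690 genes) had 1.20. The 92.9% was set against all genes and not against that class, so it does not set single messages apart from it. On the Ubc6 side the mitochondrial presequence list as a whole had a 0 min median of −0.49. The 90.3% was likewise set against all genes and not against such a class. This fit also leaned on single times and on scaling. It called 355 and 191 genes without the 15 min libraries, 17 and 44 without the 30 min libraries, 457 and 395 without the 60 min libraries, and 265 and 219 with library totals.

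**Figure D4:**
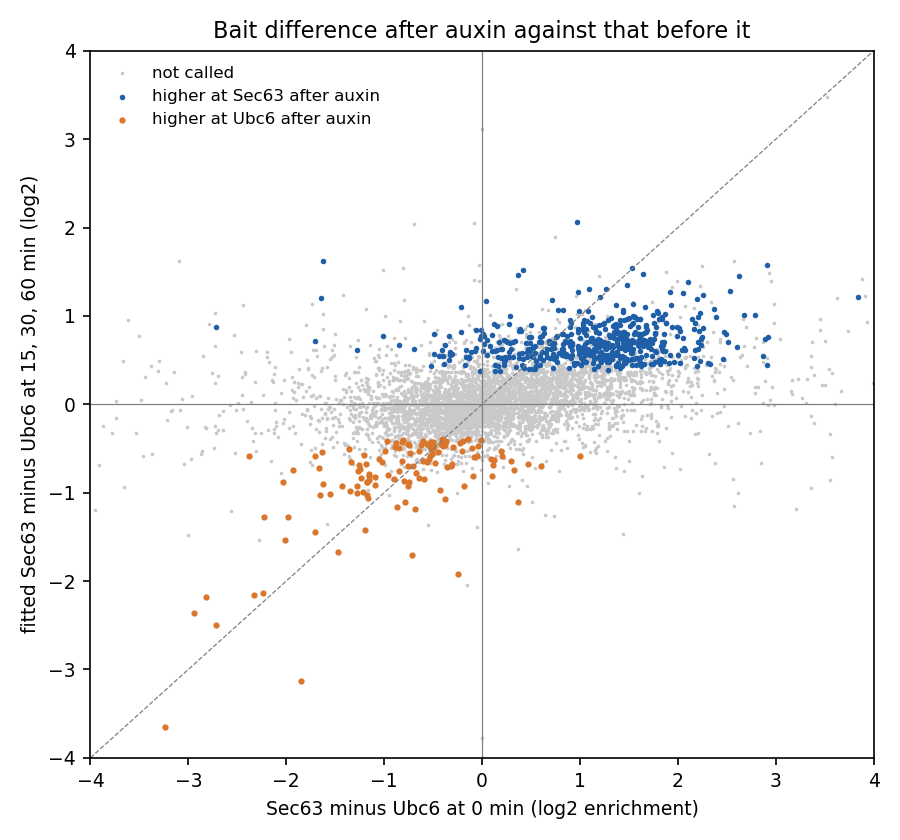
Fitted Sec63 minus Ubc6 difference after auxin (vertical axis) against the difference at 0 min (horizontal axis), both log2, for the genes tested. Genes called after auxin are in blue (518 higher at Sec63) and orange (124 higher at Ubc6), the dashed line marks equal values, and 76 genes, 1 of them called, lie outside the axes. The blue points sit mostly right of 0 and below the dashed line.

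By list, and read against all genes at the same time, the excess of secretory messages at Sec63 was wide at 0 min and narrower later. The values themselves move with the scaling. Its TMM factors for the pulldowns were 0.388 at Sec63 and 0.701 at Ubc6 at 0 min, and 0.877 and 1.18 at 60 min. The 0 min values also rest on the smallest library, the Ubc6 input (2.04 M counts). Transporters had median differences of 1.53, 0.59, 0.66 and 0.63 at 0, 15, 30 and 60 min. Soluble secreted proteins had 1.04, 0.13, 0.15 and 0.82, GPI-anchored proteins 1.01, 0.00, 0.11 and 0.74, and ER lumen proteins 1.20, −0.01, 0.05 and 0.88. Signal-anchor enzymes, whose signal is not cleaved, had 1.07, 0.04, 0.21 and 0.64, and ER tethers and shaping proteins 1.00, 0.08, 0.13 and 0.46. A difference near 0 at 15 min was thus seen in lists with and without a cleaved signal, and the lists were not tested against each other. The transporter, vacuole and Golgi, glycosylation, sterol and fatty acid, and phospho- and sphingolipid lists were pooled as mainly membrane proteins, without a count of spans. Their 185 members had medians of 1.39, 0.50, 0.53 and 0.70. The 79 members of the ER lumen, soluble secreted and GPI-anchored lists, taken as having a cleaved signal, had 1.05, 0.05, 0.12 and 0.84. The mitochondrial presequence list was below 0 at each time, with −0.49, −0.27, −0.31 and −0.47. All genes had 0.12, 0.10, 0.09 and 0.03.

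The levels behind these differences moved in both series. The pool of 185 members had median enrichments of 4.26, 2.90, 1.93 and 1.45 at Sec63 and 2.74, 2.33, 1.34 and 0.76 at Ubc6, so both declined with time in auxin. Members with a cleaved signal had 4.68, 4.14, 3.84 and 3.96 at Sec63 and 3.49, 4.11, 3.67 and 3.06 at Ubc6. At Ubc6 they were higher at 15 and 30 min than at 0 min. The 352 genes of the 11 secretory lists took 55.6%, 46.1%, 41% and 46.8% of the counts in Sec63 pulldowns and 47%, 46%, 40.2% and 35.1% in Ubc6 pulldowns. Their shares of the inputs were 10.5%, 9.76%, 8.88% and 10.7% in the Sec63 series. In the Ubc6 series they were 12.1%, 10.2%, 9.22% and 10.5%, so the pulldown shares alone do not give the bait difference.

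Tested directly, the bait difference after auxin was lower than at 0 min for 91 genes (1.72%) and higher for 11 (0.208%) by edgeR, with 2 residual degrees of freedom. The counts depended on the scaling: library totals gave 45 lower and 333 higher, and centring on glycolysis and translation factor genes gave 0 and 0 (946 genes at an unadjusted p below 0.05). With library totals the all-gene median of the change moved from −0.08 to 0.39. The whole table thus shifted, and the split does not show that single genes reversed against the rest. Without the 60 min libraries 695 were lower and 411 higher. Of transporters 10 of 79 were lower. SSM4, the ubiquitin ligase Doa10 that works with Ubc6, had 4.11, 3.24, 1.9 and 1.40 at Sec63 and 2.70, 2.88, 1.59 and 1.02 at Ubc6, and its difference changed by −1.06 (edgeR adjusted p = 0.0394). The vacuolar dipeptidyl peptidase DAP2 had 4.85, 3.86, 2.56 and 1.88 at Sec63 and 3.33, 3.85, 2.24 and 1.34 at Ubc6, a change of −1.23 (edgeR adjusted p = 0.0404). Both were further apart at 0 min than at 15 min. Neither change passed with library totals or without the 15 min or the 30 min libraries.

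Other large changes rested on few counts at 0 min. The vacuolar permease VBA2 (−4.23, edgeR adjusted p = 0.0114) had 33 counts in each Ubc6 library at 0 min, and the autophagy scramblase ATG9 (−3.03, edgeR adjusted p = 0.0119) had 47 in the input. LSB6, a phosphatidylinositol 4-kinase, gave the fitted change of 11.16, with 0 counts in the Ubc6 input at 0 min and 22 in the pulldown, so that value is no measure of size. FAB1 changed by −1.28 (edgeR adjusted p = 0.0414), with a wider excess at Ubc6 after auxin, and did not pass with DESeq2, with library totals, with the pairs centred on their medians or on glycolysis and translation factor genes, or without the 15 min libraries. For SCH9 the change was −0.40 (edgeR adjusted p = 0.416) and for VPS35 0.22 (edgeR adjusted p = 0.708).

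The Sec63 strain was also profiled without cycloheximide and with a 1 min biotin pulse at 0, 30 and 60 min, and that series was set against the same Ubc6 pairs. Both comparisons share the Ubc6 libraries, and the drug and the pulse differ from the Ubc6 series. The secretory lists then lay on the other side. Transporters had median differences of −0.86, −0.65 and −0.57 with the Sec63 series without the drug, where the series with it gave 1.38, 0.57 and 0.53 at the same times and scaling. Soluble secreted proteins had −1.37, −1.53 and −0.93 without the drug and 0.90, 0.06 and 0.73 with it. SEC61 had −0.77, −0.71 and −0.38 without the drug. The excess of secretory messages at Sec63 over Ubc6 was thus not found with the other Sec63 series. That series had lower secretory enrichments of its own. At 0 min SEC61 had 2.05, PDI1 2.18, PRC1 1.69 and KAR2 2.61 (scaled over all 30 libraries). With the drug they had 4.52, 5.39, 4.54 and 4.69 (scaled over the 16). What part this lower level has in the turn of sign was not tested. The turn therefore does not decide which bait these messages lie nearer.

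The leading messages of the Ubc6 side are given in the same way. They were chosen on values that include these Ubc6 pairs, so their signs here are descriptions. Of the 86 genes, 61 were below 0 at all 3 times, against 1436 of the 5286 genes tested. SCH9 had −2.76, −2.95 and −3.15 against Ubc6 with the series without the drug, FAB1 −2.48, −2.87 and −3.17, VPS35 −2.21, −1.98 and −2.41, and VAC8 −1.96, −2.09 and −1.93. PIB1 had 0.74, −1.09 and −2.05. In that Sec63 series SCH9 had enrichments of −0.70, −0.47 and −0.36 (scaled over all 30 libraries). With the drug it had −0.88, −1.13 and −1.16 (scaled over the 16), so these levels are not on 1 scale. MIS1 had differences of −0.95, −0.73 and −1.29, while HEM1 had −0.07, −0.04 and −0.65. TOM5 had 1.83, 1.28 and 1.44.

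**Figure D5:**
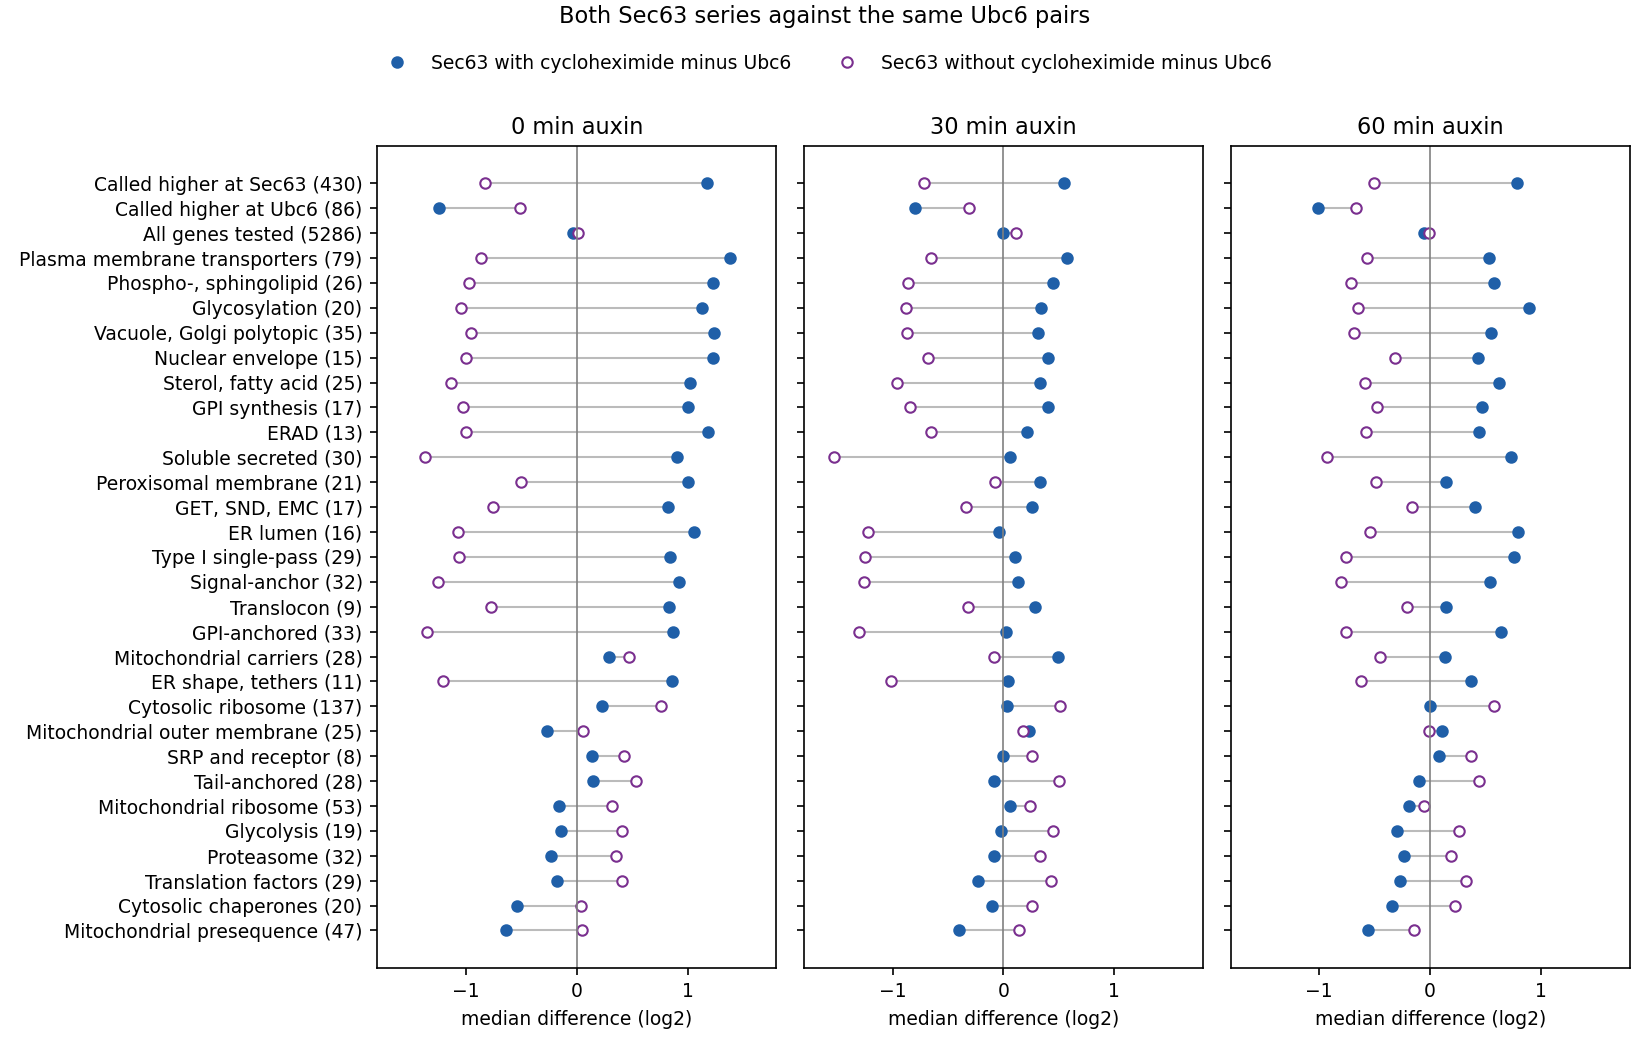
Median Sec63 minus Ubc6 difference of log2 enrichment for each list and for the called sets (number in brackets), with the Sec63 series with cycloheximide as filled blue circles and the one without as open purple circles, against the same Ubc6 pairs at 0, 30 and 60 min. Secretory lists lie right of or close to 0 with the drug and left of 0 without it, while the genes called higher at Ubc6 lie left of 0 in both. Both called sets were chosen on values that include these Ubc6 pairs, so their places are descriptions.

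The enrichment difference joins pulldown and input differences. Of the 430 Sec63-side genes 342 were also called higher in the Sec63 pulldowns, where 14.1% of all genes were, and of the 86 Ubc6-side genes 74 were called higher in the Ubc6 pulldowns, where 4.58% were. Inputs differed the opposite way for 12 of the 430 and 6 of the 86, against input calls of 3.88% higher and 1.19% lower in Sec63 among all genes. Input footprints of SCH9 (−0.13), FAB1 (0.01), RSP5 (−0.09) and VAC8 (0.01) had no difference past the test. Some lists did differ in the inputs of the 2 series. Of cytosolic ribosomal proteins 73 of 137 were higher in Sec63 inputs and 1 lower (median 0.45). Of glycolysis genes 12 of 19 were higher and 1 lower (median 0.47). Their pulldown medians were 0.55 and 0.40, so their small enrichment differences do not mean that the 2 series were alike. Gene length went with the side. The Sec63-side genes had a median length of 1058 bp and the Ubc6-side genes 1902 bp, against 1268 bp for all. With the genes tested cut by length into 4 classes, 50 of 1318 in the longest class were higher at Sec63 and 42 at Ubc6, and in the shortest class 142 of 1324 and 1. Among genes with a mean enrichment below 1 the median difference was 0.18 in the shortest class and −0.13 in the longest. Whether length takes part in the calls was not tested.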

How the data were processed

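Ribosome footprints were measured in 16 libraries, 8 pairs of whole-cell input and streptavidin pulldown. The deposited counts are whole-number footprint counts per gene made by the authors, per the file headers, for 5890 genes, of which a reference table of assembly R64 held 5887 and gave newer names to 169. The tools behind them, per the submitters' processing notes, were CASAVA with no version, TopHat2 2.1.1 and Bowtie 1.1.2, and the build was sacCer3. How molecular identifiers, strand and reads with several matches were treated is not given in the sources used here, so paralogues (such as ARN1 and ARN2) and overlapping or antisense genes are uncertain, and p-values and spreads cover these libraries only.

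Genes with a mean count of at least 20 over the 15 inputs of the study were tested, 5286 genes. Enrichments are log2 ratios of TMM-scaled CPM with a prior count of 1. TMM was taken over the 16 libraries. For enrichments at the mitochondrial baits and in the Sec63 series without cycloheximide, and for differences per time from that series, it was taken over all 30. Tests were 2-sided and quasi-likelihood (edgeR 4.0.16, R 4.3.3), Benjamini-Hochberg adjusted over the whole table, with pairs as a block, an enrichment for each auxin time and the bait term. That matched design pairs baits by auxin time, as the labels give it, with 3 residual degrees of freedom. DESeq2 1.42.0 and limma 3.58.1 were alternatives. Tested on simulated data with 5286 genes, the main comparison recovered 81 of 100 changes of 1 log2 unit and 98 of 100 of 2, and the change after auxin 36 and 71. Unchanged genes called were 3 and 10. The simulated counts had 1 mean per gene, with no pulldown, time or pair effect, and changes only in genes with a mean count above 100. They lack the variation between times seen here, so these rates are no measure of power in the real libraries.

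Genes were named by a rule: up to 12 in each direction by size among those called, with one sign at all 4 times and a mean input count of at least 100, up to 3 members of each of 28 lists, up to 8 by change after auxin, and fixed examples (SEC63, UBC6, SEC61, SSH1, SSM4, KAR2, PDI1, GAS1, PRC1, DAP2, PHO8, TCB1, TCB3, SCS2, TOM70, OM45 and SRP72 among them). Members, lists and rules were chosen with earlier results of these data known. The lists held some genes in common. Protein features were not analysed here.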

Additional observations from a re-analysis of the deposited data

Results flagged for a closer look

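The results below are differences between baits in how a message changed after auxin, taken from the direct edgeR test of that difference and given as log2 values, as Sec63 minus Ubc6 after auxin less the same at 0 min. At the level of all genes, 11 were higher and 91 lower. Among the named genes FAB1 (−1.28), SSM4 (−1.06) and DAP2 (−1.23) changed, with 163, 400 and 298 counts in the Ubc6 input at 0 min, the smallest library. SEO1 (−2.65), VBA2 (−4.23) and ATG9 (−3.03) had 35, 33 and 47 counts in that input. LSB6 (11.16) had 0 there.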

How the results depend on the processing

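Counts here are totals of both directions, and the report gives the split where it moved. The main comparison called 516 genes, and 23 without the auxin time as a block and 9 with limma, and the input comparison called 268 and 1 without that block. The time block pairs the baits by auxin time, which the labels give. Without single times the counts ran from 38 (without 60 min) to 642 (without 0 min) for the main comparison, from 61 (without 30 min) to 852 (without 60 min) for the one after auxin, from 57 (without 15 min) to 1106 (without 60 min) for the change after auxin, and from 6 (without 60 min) to 320 (without 0 min) for inputs. The change after auxin had 378 genes with library totals, 177 with no filter and 0 with centring on glycolysis and translation factor genes (946 at an unadjusted p below 0.05), against 102, and inputs had 526 with DESeq2 and 491 with library totals. The Sec63 series without cycloheximide in place of that with it gave 1294 genes, 423 higher at Sec63 and 871 higher at Ubc6. The other settings gave counts within 1.5 times the main ones, and the cause of the changes was not tested.

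With the series without cycloheximide, these fitted differences turned sign: HXT5 −0.10, ARN1 −0.19, ARR3 −0.62, LCB3 −0.56, RTA1 −0.32, CSG2 −0.87, HNM1 −0.67, DRS2 −0.17, EMC3 −1.12, SEC61 −0.71, SSH1 −0.96, SEC63 −0.66, UBC6 0.33, PET9 −0.21, DIC1 −0.50, OM45 −0.22, TOM70 −0.18, PRC1 −1.09, PHO8 −0.85, KAR2 −0.69, PDI1 −1.27, GAS1 −0.86, DAP2 −0.90, TCB1 −1.07, TCB3 −0.94, SSM4 −0.82, SCS2 0.34, SRP72 0.23 and ATG9 −0.44. Library totals turned the raw sign of TOM70 (−0.21), TCB1 (−0.18) and TCB3 (−0.05). The all-gene median moved from 0.08 to −0.17 with that scaling, so against it these 3 genes kept about the same place. Leaving out single times, TOM70 ran from −0.18 to 0.11, TCB3 from −0.03 to 0.29 and TCB1 from −0.13 to 0.14. None of these 3 passed in the main comparison. Of 48 named genes that did, 29 did not without the 60 min libraries, 23 without 15 min, 11 without 30 min, 1 without 0 min, 35 without the auxin time as a block and 39 with limma on the enrichments, all with their sign kept. Analysis of protein sequence features and its other threshold were not run, since no sequence table was used here. Few input counts in the Ubc6 pair at 0 min limit the change after auxin.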
